A study of Mus musculus with 69 samples.

Results

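The genes described here are the POU class 3 transcription factor genes Pou3f1, Pou3f2, Pou3f3 and Pou3f4 and the long noncoding RNA gene Pantr1, which lies beside Pou3f3. They are 5 of the 18194 genes measured in single cells of the mouse embryonic forebrain, and they were chosen by name with results of these data in view, so their levels are given as descriptions and carry no test. Of the 34958 probe sets annotated to a single gene, 10 belong to these genes, and where a gene had several, the one brightest on average (mean log2) was read. The cells came from the dorso-lateral cerebral wall of CD1 mouse embryos at embryonic day 14, were picked by hand with a glass capillary after trypsin digestion, and were amplified and hybridised to an Affymetrix array each. Of them, 3 were taken from the cortical plate (CP), in which newborn neurons settle, and 66 from the ventricular and subventricular zones (VZ/SVZ), in which progenitors divide. The cells' titles carry a letter, with 3 CP cells under E and VZ/SVZ cells under A (7), B (14), C (7), D (7) and X (31). What a letter stands for is not given in the labels, nor whether it was assigned from these same expression values. Groups follow the source label, because for the 3 CP cells the description reads VZ/SVZ instead. Animals are not identified in the labels, so CP and VZ/SVZ are 1 sample apiece, no test was made between them, and the differences have no replicate check.

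POU class 3 factors bind octamer-like DNA through a paired POU-specific domain and homeodomain, often beside a SOX factor on the same element. Their genes lack introns in their coding regions and are expressed widely in the developing nervous system. Pou3f2 and Pou3f3, also called Brn2 and Brn1, act redundantly in the mouse cortex in the production and migration of upper-layer neurons. Pou3f1, also called Oct6 or SCIP, is known from myelinating Schwann cells and from cortical projection neurons, and Pou3f4, also called Brn4, from the inner ear and the ventral forebrain. Eomes marks intermediate progenitors, Sox2 neural progenitors that keep stem-like properties, and Tubb3, a neuronal tubulin, cells that have begun neuronal differentiation.

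In RefSeq's annotation of GRCm38.p6, Pantr1 lies on chromosome 1 from 42648200 to 42694825 and Pou3f3 from 42695768 to 42700210, with 942 bases between their ends. The noncoding gene 2900092D14Rik starts 125 bases after Pou3f3 ends, and Pantr2 starts 6850 bases after it. Pou3f1 and Pou3f2 are on chromosome 4, from 124657646 to 124660655 and from 22482095 to 22488366, and Pou3f4 is on chromosome X from 110814379 to 110819108. RefSeq promoter windows of GRCm38.p6, from 250 bases before to 50 bases after the gene's start, were at hand for 3 of the 5 genes. They cover Pou3f3, on in every VZ/SVZ cell, and its relatives Pou3f2 and Pou3f4, on in some of the cells. Any link between sequence and that difference was not tested. CCAAT boxes (CCAAT or its reverse complement ATTGG) are in capitals. The windows are chr1:42695518-42695817 on the plus strand for Pou3f3, chr4:22488317-22488616 on the minus strand for Pou3f2 and chrX:110814129-110814428 on the plus strand for Pou3f4.
Pou3f3: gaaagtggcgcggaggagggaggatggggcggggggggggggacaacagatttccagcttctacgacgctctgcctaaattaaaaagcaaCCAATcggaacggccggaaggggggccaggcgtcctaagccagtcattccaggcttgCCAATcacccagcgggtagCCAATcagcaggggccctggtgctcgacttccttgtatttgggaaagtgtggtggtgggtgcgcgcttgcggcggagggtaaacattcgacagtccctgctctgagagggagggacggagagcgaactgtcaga
Pou3f2: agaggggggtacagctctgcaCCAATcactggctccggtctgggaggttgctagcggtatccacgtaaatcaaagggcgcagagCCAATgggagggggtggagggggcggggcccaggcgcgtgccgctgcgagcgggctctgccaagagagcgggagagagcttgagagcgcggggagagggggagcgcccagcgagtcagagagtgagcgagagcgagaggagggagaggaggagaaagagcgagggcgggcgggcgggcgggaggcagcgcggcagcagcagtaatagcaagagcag
Pou3f4: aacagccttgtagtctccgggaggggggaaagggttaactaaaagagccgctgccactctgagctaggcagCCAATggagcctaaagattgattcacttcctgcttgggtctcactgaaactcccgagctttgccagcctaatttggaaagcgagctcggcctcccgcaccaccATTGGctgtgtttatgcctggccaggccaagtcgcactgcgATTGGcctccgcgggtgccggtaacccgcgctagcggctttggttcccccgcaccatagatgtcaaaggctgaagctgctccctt
The Pou3f3 window held 3 CCAAT boxes, all on the gene's strand, which began 160, 103 and 84 bases before the start. The Pou3f4 window also held 3, which began 179, 76 and 35 bases before the start, and the Pou3f2 window held 2, at 229 and 166 bases. Of all 32851 promoter windows of the same length, 37.4% held at least 1 CCAAT box, 11.7% at least 2 and 3.37% at least 3. The GC box GGGCGG, searched on both strands, occurred 5 times for Pou3f2, 1 time for Pou3f3 and 0 times for Pou3f4, and 35.7% of windows held it at least once. Neither the octamer ATGCAAAT, which 1.74% of windows held, nor TATAAA, which 13.6% held, occurred in the 3 windows. The share of G and C was 67.7% for Pou3f2, 60.3% for Pou3f3 and 57.7% for Pou3f4, against a median of 52.7% over all windows. A match here is a run of letters in a window, and no binding was measured.

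The values are array signals on a linear scale, and a cell was counted as holding a gene where its signal was above 50. Differences are between mean log2 signals with values below 50 set to 50, and a difference of at least 1 log2 unit is a rule of size, not a test. Intervals of shares are at 95%, by the exact Clopper-Pearson method, and cover counting error only. The nearest values inside and outside the threshold were 245 and 40.8 for Eomes, 96.3 and 47.8 for Sox2 and 124 and 39.1 for Tubb3. They were 2168 and 29.4 for Pou3f3, 617 and 10.03 for Pantr1, 60.2 and 19.1 for Pou3f1, 70.6 and 33.7 for Pou3f2 and 82.6 and 39.3 for Pou3f4. Cells differed in brightness: the 2% trimmed mean signal was 50.1 to 76.1 in CP and 59.2 to 142 in VZ/SVZ cells, and 3713 to 4719 genes in CP and 3726 to 5715 in VZ/SVZ cells were above 50. All 10 neuron markers, among them Tubb3, Dcx, Stmn2 and Mapt, were above 50 in each of the 3 CP cells, and the 7 G2/M markers in none. Of 12 apical progenitor markers 9 were above 50 in no CP cell, Sox2 and Pax6 among them, while Vim was above 50 in 2 CP cells and Nes and Slc1a3 in 1 each. Of 10 intermediate progenitor markers, Eomes, Neurog2, Gadd45g, Neurod1 and Mfng were above 50 in no CP cell, Hes6 in 3, Insm1 and Dll1 in 2, and Btg2 and Elavl4 in 1. No endothelial, erythroid or microglial marker (5 genes each) was above 50 in any of the 69 cells. Interneuron, Cajal-Retzius, pericyte and meningeal, and oligodendrocyte precursor markers were above 50 in no CP cell, but up to 3 of 6 interneuron markers and up to 1 marker of each of the other lists were above 50 in single VZ/SVZ cells. The number of arrays limits the precision, above all for the 3 CP cells.

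Pou3f3 and Pantr1 were above 50 in no CP cell and in every VZ/SVZ cell. Pou3f3 read 29.4, 1.05 and 4.82 in the 3 CP cells, against a lowest value of 2168, a median of 4601 and a highest value of 6751 in the 66 VZ/SVZ cells. Pantr1 read 10.03, 5.59 and 8.32 in the CP cells, against 617, 3063 and 5445 (lowest, median and highest) in VZ/SVZ cells. The groups do not overlap for either gene, and the dimmest VZ/SVZ cell lay far above the brightest CP cell. How many of all genes do not overlap was not counted. On the log2 scale Pou3f3 stood at the floor of 5.64 in CP and at 12.11 ± 0.36 in VZ/SVZ cells (SD, n = 3 and 66), and Pantr1 at 5.64 in CP and 11.52 ± 0.56 in VZ/SVZ cells. Pou3f3 was at least 88.7-fold and Pantr1 at least 58.7-fold lower in CP, taking the CP level as no higher than 50. Their log2 differences of −6.47 and −5.88 were the largest negative differences of all 18194 genes. Of all genes, 0.0165% were above 50 in no CP cell and all VZ/SVZ cells, namely Pou3f3, Pantr1 and Lhx2, a LIM homeobox gene of the dorsal forebrain. Lhx2 passed narrowly, with a VZ/SVZ cell at 50.6. Lower CP values by at least 1 log2 unit were common, at 12.9% of all genes, and 4 of the 5 genes here (all but Pou3f4) were among them, a count that the choice of genes used. Pou3f2 dropped out of it with a floor of 100 (−0.87) and over the mean of all its probe sets (−0.62), as did Pou3f1 over the mean of its probe sets (−0.92). The same 4 were above 50 in no CP cell, as were 64.1% of all genes. The CP arrays were dimmer. With each cell scaled to 1 trimmed mean the Pou3f3 and Pantr1 differences were −6.47 and −5.88 again. Their CP values stayed at or near the floor, so this scaling could hardly change the differences and is no test of brightness.

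**Figure D1:**
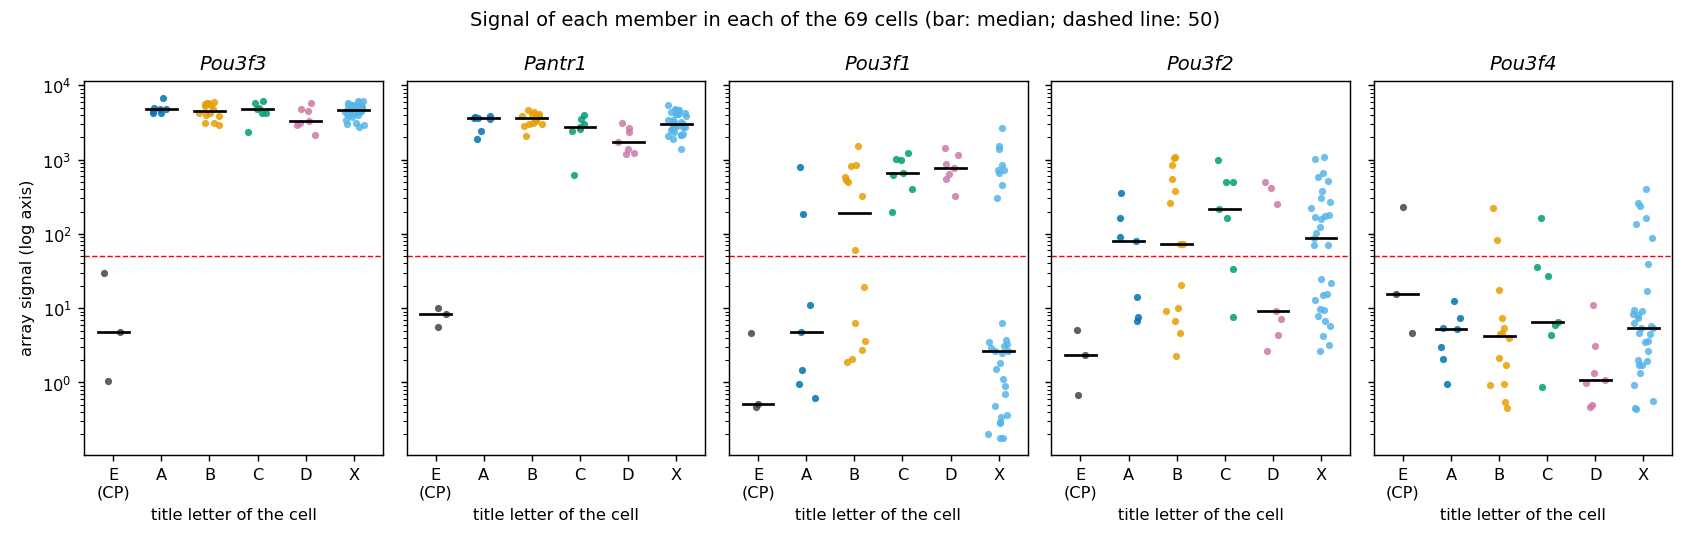
Array signal (log axis) of Pou3f3, Pantr1, Pou3f1, Pou3f2 and Pou3f4 in each of the 69 cells, by the letter in the cell's title, with E the 3 CP cells and A, B, C, D and X the 66 VZ/SVZ cells; a bar is the median and the dashed line is 50. Pou3f3 and Pantr1 lie below 30 in CP and above 600 in every VZ/SVZ cell, and Pou3f1 is above 50 in all cells of letters C and D.

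Pou3f3 varied less than Pantr1 among VZ/SVZ cells. There were 347 genes (1.91%) above 50 in all 66 VZ/SVZ cells. Ordered by their SD over those cells, the smallest first, Pou3f3 was number 52, Pantr1 number 106 and Lhx2 number 306, with SDs of 0.36, 0.56 and 0.996 log2 units. Median Pou3f3 signal was 4806 in letter A, 4533 in B, 4862 in C, 3342 in D and 4637 in X, with overlapping ranges in every letter. Neighbours in the order of these medians did not differ beyond their spread.

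Pantr1 was the more variable of the pair across letters. Its signal in the 7 letter D cells was 1197 to 3089 with a median of 1709, against medians of 2772 in letter C, 3060 in X, 3610 in A and 3664 in B. Letter D lay 0.77 log2 units below the other VZ/SVZ letters, and its range overlapped theirs. Letter D cells were also dimmer in general, with a median trimmed mean of 73.3 against 93.8 over all VZ/SVZ cells and a median of 4135 genes above 50 against 4712. With each cell scaled to 1 trimmed mean the Pantr1 difference was −0.42, and for Pou3f3 the difference of −0.32 became 0.032. The letter D cells held neuronal markers, with 8 to 10 of 10 above 50, and 5 of the 7 G2/M markers were above 50 in none of them.

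Split by marker, neither gene differed by 1 log2 unit. Pantr1 averaged 11.62 ± 0.51 in the 49 VZ/SVZ cells with Sox2 and 11.22 ± 0.61 in the 17 without it, and 11.41 ± 0.67 in the 35 cells with Tubb3 and 11.64 ± 0.38 in the 31 without it. Pou3f3 averaged 12.13 ± 0.33 with Sox2 and 12.07 ± 0.44 without it, and 12.19 ± 0.33 with Eomes (28 cells) and 12.06 ± 0.37 without it (38 cells). All these differences were smaller than the SD between cells. Both genes were above 50 in cells with the markers of apical progenitors, of intermediate progenitors and of young neurons within the VZ/SVZ.

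Among VZ/SVZ cells Pou3f3 and Pantr1 signals varied together to a limited degree, with Spearman's rho 0.38 and Pearson's r 0.56 on log2 signals over 66 cells. All points share their cells' amplification and array, and the signals of Pou3f3 and Pantr1 each also followed the cell's trimmed mean, with rho 0.47 and 0.46. After scaling to 1 trimmed mean the rho between the genes was 0.18, and after quantile normalisation 0.13. Within letter X alone, before scaling, it was 0.42 over 31 cells. A letter C cell was the dimmest of its letter in both genes, at 2393 for Pou3f3 and 617 for Pantr1, and without it Pearson's r was 0.50 and rho 0.35. Over all 69 cells Pearson's r was 0.94, a value that the 3 CP cells set.

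**Figure D2:**
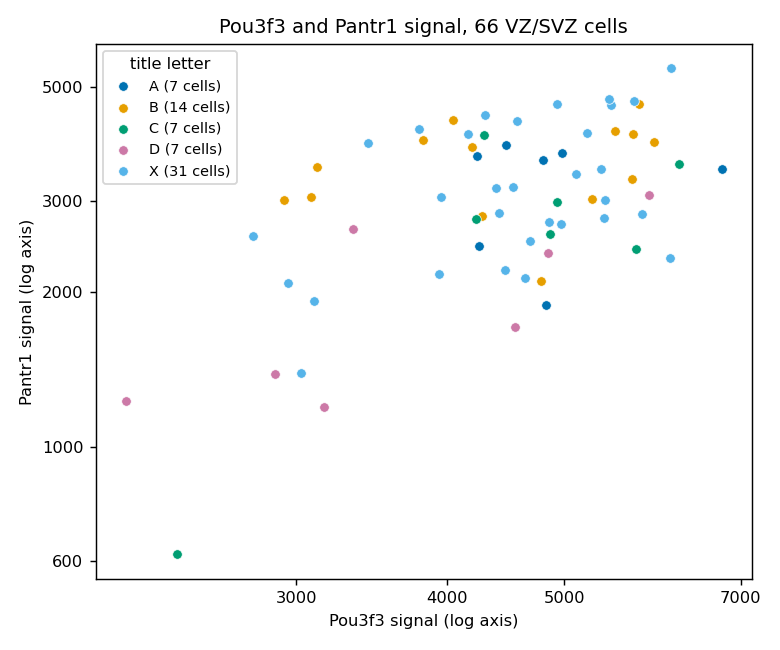
Pou3f3 signal against Pantr1 signal (both log axes) in the 66 VZ/SVZ cells, coloured by title letter. Spearman's rho is 0.38; the letter D cells lie low in Pantr1, and the lowest point is the letter C cell at 2393 and 617.

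The genes whose signals ran closest to Pantr1 over the 66 cells, of 8703 above 50 in at least 10% of them, were Morf4l2 (rho 0.57), Rps24 (0.54), Hmgb3 (0.54), the centromere histone gene Cenpa (0.54) and Hdgf (0.54). All 7 measured G2/M genes had a rho of at least 0.3 with Pantr1, a share that 6.07% of all genes reached, and their median rho was 0.47 with Ube2c highest at 0.50. At the other end stood Ly6h (−0.54), the potassium channel regulator gene Abcc8 (−0.46) and Trim67 (−0.45). For Pou3f3 the closest genes were Aco1 (0.58), Uqcrh (0.52), Atp5j (0.52), Snrpc (0.51) and Ran (0.51), and of the 7 G2/M genes none reached 0.3. Aco1 encodes cytosolic aconitase, and Uqcrh and Atp5j subunits of the respiratory chain and ATP synthase. Ly6h (−0.40), Rnf208 (−0.38) and the kainate receptor gene Grik5 (−0.38) were lowest for Pou3f3. Cux2, an upper-layer and intermediate progenitor gene, had a rho of 0.40 with Pou3f3 and 0.32 with Pantr1, the highest of the 6 upper-layer genes that could be ranked. These correlations are not adjusted for brightness.

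Pou3f1 was on in a part of the VZ/SVZ cells, more often in those with neuronal markers. It read 4.605, 0.509 and 0.465 in the CP cells, and 0.177 to 2705 with a median of 39.7 in VZ/SVZ cells. None of 3 CP cells, which allows a share of up to 70.8%, and 33 of 66 VZ/SVZ cells (50%, interval 37.4% to 62.6%) were above 50. The 33 cells above 50 had a median of 718, and the highest value among the other 33 was 19.1. All 7 letter C cells (199 to 1230) and all 7 letter D cells (328 to 1437) held Pou3f1, against 8 of 14 in letter B, 9 of 31 in X and 2 of 7 in A. Pou3f1 lay 2.29 log2 units higher in letter D than in the other VZ/SVZ letters. Over the 66 VZ/SVZ cells the Pou3f1 signal had a Spearman's rho of 0.00047 to the trimmed mean and of −0.15 to the number of genes above 50.

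Of the 3 markers, Sox2 gave the largest difference. Pou3f1 was above 50 in 17 of 49 VZ/SVZ cells with Sox2 and in 16 of 17 without it, a difference of −59.4 percentage points (Newcombe interval −72.1 to −34.1, counting error only). The median signal was 3.28 with Sox2 and 763 without it, the log2 means were 6.80 ± 1.74 and 9.50 ± 1.20 (SD), and their difference was −2.71. The exception without Sox2 was a letter B cell at 19.1. By the same measure 3.28% of all genes were lower in cells with Sox2 by at least 1 log2 unit and 5.31% higher, and of the 5 genes only Pou3f1 was lower and none higher. Without letter D, whose cells all lack Sox2, 17 of 49 and 9 of 10 cells held Pou3f1. Within letter X it was on in 4 of 26 cells with Sox2 and in 5 of 5 without it. Those 5 include a cell with Sox2 at 47.8 and another at 32.2, near the threshold of 50. In letter C, by contrast, 4 of 4 cells with Sox2 and 3 of 3 without it held Pou3f1.

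Cells with Tubb3 held Pou3f1 more often, in 25 of 35 against 8 of 31 cells without Tubb3, which is 45.6 points more (21.6 to 62.8). The log2 means were 8.47 ± 1.94 with Tubb3 and 6.39 ± 1.42 without it, and 1.76% of all genes were higher and 2.6% lower by at least 1 log2 unit in this split. Of the 5 genes only Pou3f1 was higher and none lower. Within letter X the counts were 7 of 11 and 2 of 20, and in letter B 5 of 8 and 3 of 6, while in letter A they ran the other way, at 0 of 3 and 2 of 4. In bands chosen after the values were seen, Pou3f1 was on in 8 of 31 VZ/SVZ cells with Tubb3 at or below 50, in 4 of 13 with Tubb3 from 50 to 1000 and in 21 of 22 (95.5%, 77.2% to 99.9%) with Tubb3 above 1000. Among VZ/SVZ cells that also held Sox2, the counts were 7 of 30, 3 of 12 and 7 of 7. All 3 CP cells had Tubb3 above 1000 and none held Pou3f1.

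**Figure D3:**
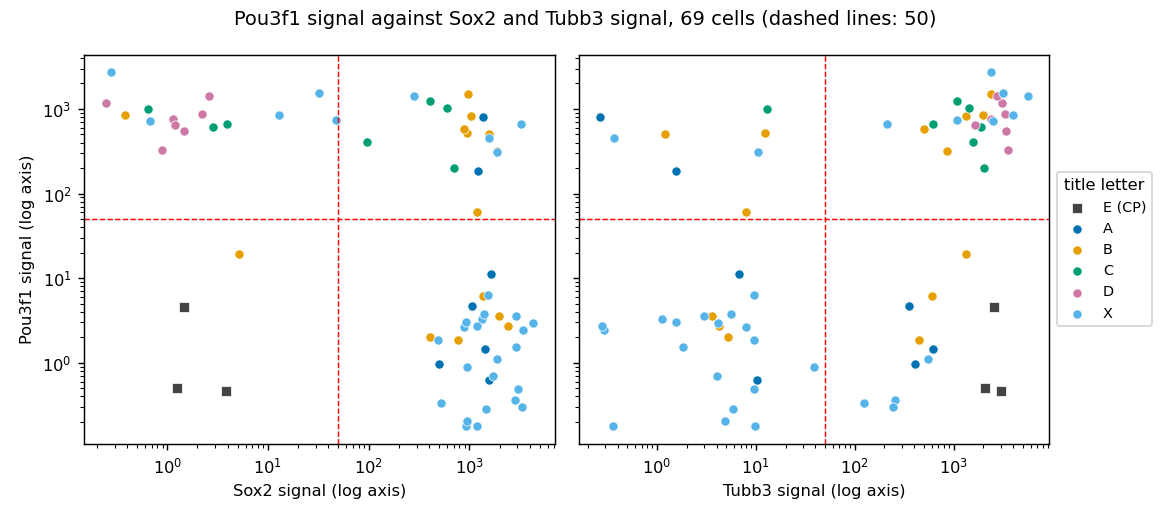
Pou3f1 signal against Sox2 (left) and Tubb3 signal (right) in the 69 cells, all axes logarithmic, with squares for the 3 CP cells, circles for VZ/SVZ cells coloured by title letter and dashed lines at 50. VZ/SVZ cells without Sox2 lie above 50 for Pou3f1 but for 1 at 19.1, and cells with Tubb3 above 1000 form the upper right cluster, with the CP squares below it.

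Eomes split Pou3f1 less. It was on in 18 of 28 cells with Eomes and 15 of 38 without it, 24.8 points more (0.512 to 45.3). Within letter X this was 11.4 points (−19.9 to 46.1) and without letter X 15 points (−14.8 to 42.9), with log2 differences of 0.51 and 0.39. Over all VZ/SVZ cells the log2 difference of 0.79 was below the rule of size, which 1.1% of all genes reached upward and 1.14% downward. Within cells with both Eomes and Sox2, Pou3f1 was on in 9 of 11 cells with Tubb3 (81.8%, 48.2% to 97.7%) and in 3 of 10 without it (30%, 6.67% to 65.2%). Among cells with Sox2 and no Eomes it was on in 1 of 8 with Tubb3 and 4 of 20 without it. Cells with Eomes and Tubb3 but no Sox2 held it in 5 of 6. The set with Tubb3 alone, 7 letter D and 3 letter X cells, held it in 10 of 10 (69.2% to 100%), at 328 to 2705 with a median of 858. The share was 20% (5.73% to 43.7%) in the set with Sox2 alone and 12.5% (0.316% to 52.7%) in that with Sox2 and Tubb3. These intervals count cells and not animals, and the sets differ in title letters, so they are no test between sets.

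**Figure D4:**
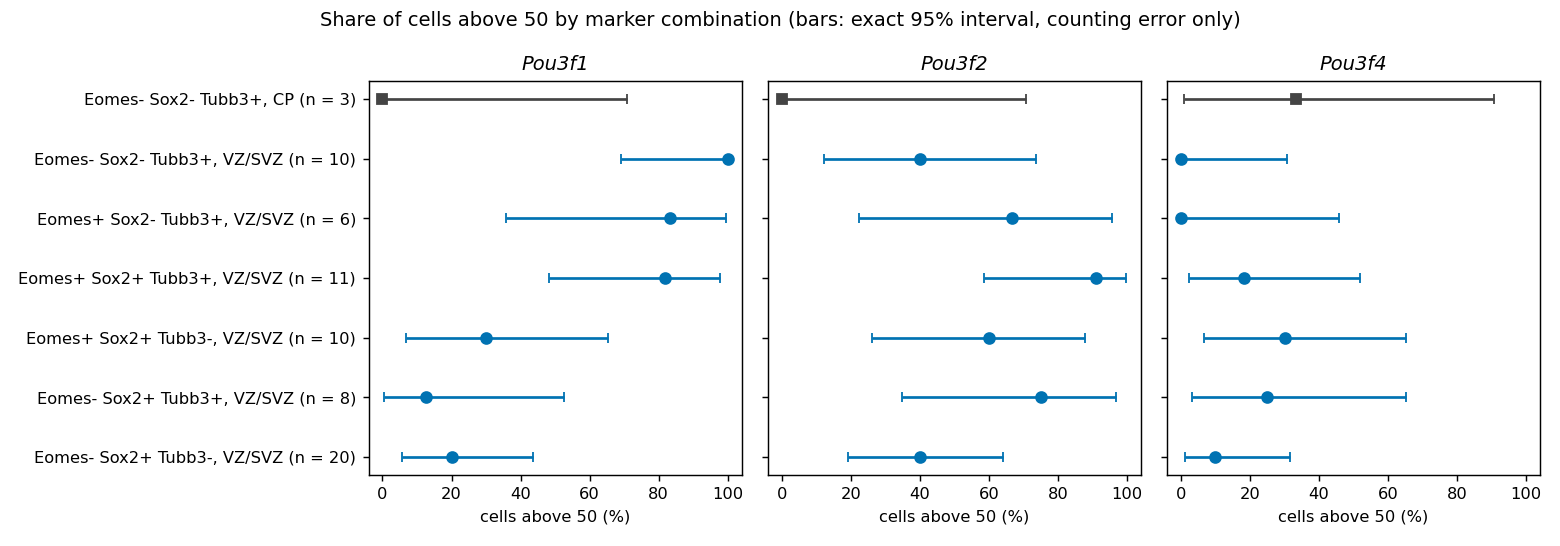
Share of cells above 50 for Pou3f1, Pou3f2 and Pou3f4 (percent) in the 7 combinations of Eomes, Sox2 and Tubb3 that held at least 3 cells, CP in the top row and VZ/SVZ sets below; points are shares and bars exact 95% intervals for counting error. Pou3f1 reaches 100% in the 10 VZ/SVZ cells with Tubb3 alone and 0% in the 3 CP cells with the same combination, while Pou3f2 has no such order.

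CP and VZ/SVZ cells with the same 3 markers differed in Pou3f3, Pantr1 and Pou3f1 together. The 3 CP cells and the 10 VZ/SVZ cells with Tubb3 alone had overlapping Tubb3 (2064 to 3001 against 1630 to 3994), Dcx (910 to 2738 against 424 to 5029), Neurod6 (1130 to 2284 against 1043 to 4209) and Stmn2 (3122 to 4811 against 288 to 5161). The SOX gene Sox11, however, did not overlap, at 2450 to 3181 in CP and 4274 to 6964 in the VZ/SVZ cells. Pou3f3 was 1.05 to 29.4 in CP and 2168 to 5878 in these VZ/SVZ cells, Pantr1 5.59 to 10.03 and 1197 to 3089, and Pou3f1 0.465 to 4.605 and 328 to 2705. The ranges of Pou3f3, Pantr1 and Pou3f1 do not overlap between the sets. How many of all 18194 genes do not overlap was not counted. The CP level was at least 75.0-fold lower for Pou3f3, 37.7-fold for Pantr1 and 18.5-fold for Pou3f1. Their log2 differences of −6.23, −5.24 and −4.21 ranked number 1, 2 and 7 from the lowest among 18194 genes, of which 9.38% were lower by at least 1 log2 unit. Only 0.055% of genes, 10 in number, were above 50 in no CP cell and in all 10 of these VZ/SVZ cells, and the 3 genes here were among them with Limch1 (−4.84), Lhx2 (−4.82) and Trp53inp2 (−4.16). The deep-layer gene Fezf2 ran the other way, at 2493 to 4114 in CP and 172 to 1394 in VZ/SVZ cells, and Bcl11b, another, at 1853 to 3053 and 15.5 to 2114. The CP arrays were dimmer, with trimmed means of 50.1, 55.6 and 76.1 against 64.3 to 137 (median 78.0) in the 10 VZ/SVZ cells, so 2 of the 3 CP cells lay below all of them, and the part of brightness in these differences was not tested. This set of cells and the genes set beside the 5 were chosen after the values were seen.

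**Figure D5:**
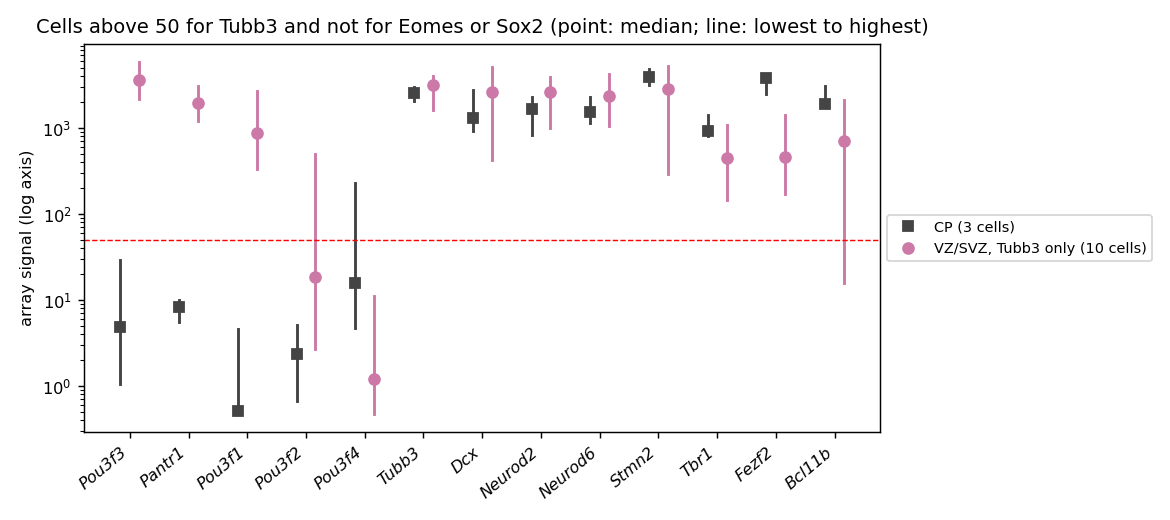
Array signal (log axis) of the 5 genes and 8 neuronal genes in the 3 CP cells (squares) and in the 10 VZ/SVZ cells with Tubb3 and without Eomes or Sox2 (circles); points are medians, lines run from the lowest to the highest cell and the dashed line is 50. Pou3f3, Pantr1, Pou3f1 and, in the other direction, Fezf2 do not overlap between the sets, while Tubb3, Dcx, Neurod2, Neurod6 and Stmn2 do.

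Over the 66 VZ/SVZ cells, neuron markers ran with Pou3f1, as a description that no test accompanies. The closest were Nol4 (rho 0.79), the neuronal bHLH gene Neurod2 (0.77), the kinesin gene Kif21b (0.76), the microtubule gene Dcx (0.76) and the calcium channel subunit gene Cacna2d1 (0.75). Of 9 ranked neuron markers, 8 had a rho of at least 0.3, against 8.09% of all genes, with a median of 0.68, and Gap43 was the exception at 0.16. Of 12 apical progenitor markers, 11 had a rho of at most −0.3, against 7.86% of all genes, with a median of −0.57. Yap1, the effector of Hippo signalling (−0.72), Ddah1 (−0.69) and the radial glial filament gene Vim (−0.69) were lowest. Intermediate progenitor markers stood between, with 5 of 10 at 0.3 or more, led by Insm1 at 0.55. Of the SOX genes, Sox11 had a rho of 0.72 and Sox21 of −0.63.

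Genes of dividing progenitors were above 50 in many cells with Pou3f1, but in a smaller share of them than of cells without it. The following genes were chosen after their values were seen. The proliferation gene Mki67 was above 50 in 22 of 33 VZ/SVZ cells with Pou3f1 and 33 of 33 without it (−33.3 points, −50.4 to −16.2). Pax6, of apical progenitors, was above 50 in 23 of 33 and 33 of 33 (−30.3 points, −47.3 to −13.7). Tbr1, an early projection neuron gene, was above 50 in 21 of 33 with Pou3f1 and 2 of 33 without it (57.6 points, 35.8 to 72.4), and Bcl11b in 16 of 33 and 3 of 33 (39.4 points, 17.8 to 56.7). Neurod6 (51.5 points) and Stmn2 (30.3 points) were also higher. Fezf2, however, was above 50 in 30 of 33 and 28 of 33 (6.06 points, −10.7 to 22.9). Cux2 (−9.09 points, −25.5 to 6.90) and Neurog2 (−3.03 points, −22.1 to 16.3) ran slightly the other way. Of the 23 cells with Tbr1, 91.3% held Pou3f1, whereas 63.6% of the cells with Pou3f1 held Tbr1. Sums over the neuron markers were 319 to 25579 in cells with Pou3f1, with a median of 7682, and 33.1 to 7183 in cells without it, with a median of 580. Up to 3 of 6 interneuron and 1 of 6 Cajal-Retzius markers were above 50 in cells with Pou3f1 and none in cells without it, and their part in the Pou3f1 result was not tested.

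Pou3f2 was also on in a part of the VZ/SVZ cells, and its differences by Eomes and by Tubb3 were both close to the rule of size. Its brightest probe set, 1453478_at, read 0.670, 5.03 and 2.33 in CP cells and 2.26 to 1088 with a median of 84.5 in VZ/SVZ cells. It was above 50 in 0 of 3 CP cells (up to 70.8%) and 38 of 66 VZ/SVZ cells (57.6%, 44.8% to 69.7%). With the floor the log2 difference of CP from VZ/SVZ was −1.41. Without a floor the geometric mean in VZ/SVZ cells was 61.5, so CP, at no more than 50, was at least 1.23-fold lower. By letter it was on in 3 of 7 D, 4 of 7 A, 8 of 14 B, 18 of 31 X and 5 of 7 C cells, and the intervals of all 5 letters overlap. The other 2 probe sets were dimmer: 1450831_at was above 50 in 11 VZ/SVZ cells, 10 of which also passed on 1453478_at, and 1457734_at in 8, of which 7 did. Neither was above 50 in CP.

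Pou3f2 was above 50 in 20 of 28 VZ/SVZ cells with Eomes and 18 of 38 without it, 24.1 points more (0.0161 to 44), and the log2 difference was 1.002. With Tubb3 the counts were 24 of 35 and 14 of 31, 23.4 points more with an interval of −0.364 to 43.9, and the log2 difference was 0.97. With Sox2 they were 30 of 49 and 8 of 17, 14.2 points more (−11.9 to 38.4), while the log2 means ran the other way, at 6.999 ± 1.46 with Sox2 and 7.21 ± 1.82 without it. The Eomes and Tubb3 differences lie on either side of the rule of size, which 1.1% and 1.76% of all genes passed upward, and which of them is larger depends on the setting. With a floor of 25 they were 1.26 and 1.19, with a floor of 100 they were 0.78 and 0.71, and without letter X they were 0.89 and 1.21. Over the mean of all Pou3f2 probe sets they were 0.36 and 0.39. Probe set 1457734_at was above 50 in 8 of 28 cells with Eomes and 0 of 38 without it, but at 85.7 or less, close to the threshold. Cells with all 3 markers held Pou3f2 in 10 of 11, those with Sox2 alone in 8 of 20 and those with Tubb3 alone in 4 of 10. No gene ran close to Pou3f2: the highest rho was 0.47, for Ppp1r14a, followed by Hpcal1 (0.46), Klf12 (0.45), Spsb4 (0.45) and Rsrc1 (0.44), and the lowest −0.44, for Thoc3. Pou3f1 and Pou3f2 were shared by 20 cells, 60.6% of those with Pou3f1 and 52.6% of those with Pou3f2, with a rho of 0.17.

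Pou3f4 was rare. Probe set 1422165_at read 15.6, 231 and 4.66 in CP cells and 0.445 to 407 with a median of 4.596 in VZ/SVZ cells, and was above 50 in 1 of 3 CP cells (33.3%, 0.840% to 90.6%) and 9 of 66 VZ/SVZ cells (13.6%, 6.43% to 24.3%). The log2 difference was 0.49 and rests on that CP cell, since without it the difference was −0.25. Probe set 1422164_at was above 50 in another CP cell, at 583, and in 1 VZ/SVZ cell, at 618, and no cell passed on both. By letter Pou3f4 was on in 0 of 7 A, 0 of 7 D, 2 of 14 B, 1 of 7 C and 6 of 31 X cells. All 9 VZ/SVZ cells that held it also held Sox2, as did 40 of the other 57, a difference of 29.8 points (−1.81 to 42.7). In the other direction 9 of 49 cells with Sox2 and 0 of 17 without it held Pou3f4. Of these 9 cells, 6 held Pou3f2 and 2 held Pou3f1. In values this sparse the closest genes, led by Pdp2 at a rho of 0.44, are no finding.

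Some probe sets of the class stayed dark. The second Pou3f1 probe set, 1422068_at, the second Pou3f3 probe set, 1422331_at, and 1429857_at, which the annotation gives to both Pou3f3 and 2900092D14Rik, were above 50 in 0 of 69 cells. The Pou3f3 and Pou3f1 levels above therefore rest on 1 probe set each, and Pantr1 has only 1. Of 11 other POU genes, 7 had a probe set of their own, and none differed between CP and VZ/SVZ by 1 log2 unit, against 12.9% of all genes lower and 5.07% higher. Pou6f1 was the widely expressed one, above 50 in 3 of 3 CP and 55 of 66 VZ/SVZ cells. Pou2f2 was above 50 in 3 VZ/SVZ cells, Pou4f1 in 1, and Pou2f3, Pou2af1, Pou4f3 and Pou5f1 in none.

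Factors and genes that work with the class had mixed differences. Of 12 SOX genes, 2 passed 1 log2 unit upward in CP (Sox5 by 3.68 and Sox12, named after its value was seen, by 1.75) and 6 downward, with differences of −3.41 for Sox2, −3.25 for Sox6 and −2.96 for Sox1. Of all genes 5.07% passed upward and 12.9% downward, and the list's median was −0.92 against 0 over all genes. Of 13 measured genes that other work has described as bound by, or dependent on, POU class 3 factors, 4 were higher in CP and 5 lower, with a median of −0.30, against 5.07% of all genes higher and 12.9% lower. The glial fatty acid binding protein gene Fabp7 (−5.56), Pax6 (−3.95) and Notch1 (−3.46) were lower, and Tbr1 (3.21) was among those higher. Of 11 upper-layer genes 3 were lower in CP (Lhx2 −5.49, Limch1 −3.45 and Cux1 −2.10) and 4 higher, led by Cdh13 at 3.78. Of 11 deep-layer genes 6 were higher in CP and none lower, with Bcl11b at 4.35, Sox5 at 3.68, Tbr1 at 3.21 and Fezf2 at 2.90. The same shares of all genes, 5.07% higher and 12.9% lower, stand beside both layer lists.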

How the data were processed

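Single cells were profiled on Affymetrix arrays. The deposited values are linear probe set intensities, for which the submitters' processing notes name MAS5 without a version. How arrays were scaled is not stated there or in the labels. The table held 45101 probe sets for 69 of the 70 cells that the labels' protocols say were put on arrays. Gene names came from the platform annotation, and only probe sets with 1 gene were used.

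The members and all gene lists were chosen with earlier results of these data known. Cells were grouped by source label, title letter and marker signal above 50. Values below 50 were set to 50 before log2. This threshold lies above all 207 values of the TrpnX control probe sets, and 18% of all values pass it. No animal is named in the labels, so no test of a difference between groups was run, and the check for single cells that stand apart within a letter (Dixon) has cells as its units. Each comparison gives differences of mean log2 signal with SDs over cells, and shares with Clopper-Pearson or Newcombe 95% intervals. Named genes are the 5 members, the 5 highest and 3 lowest by Spearman's rho per member, and up to 4 genes per list by difference between CP and VZ/SVZ. Others are marked as chosen later, are a list's highest, lowest or exceptions, or describe the cells. No doublet caller was run. Other floors, thresholds, scalings, probe set rules and cell sets were tried. Difference and likeness code was tested on simulated data. Python 3.11.15, numpy 2.4.6, pandas 2.3.3, scipy 1.17.1 and matplotlib 3.10.9 were used.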

Additional observations from a re-analysis of the deposited data

Results flagged for a closer look

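Some cells stood apart from the other cells of their title letter by the ratio of the gap to the range (Dixon's test at 95%). For independent, normally distributed values chance alone does this in about 1 of 20 groups. In all, 17 sets of 7 cells (1 probe set in letter A, C or D) were looked at. In letter C, 1 cell was lowest for both genes of the chromosome 1 pair, at 2393 for Pou3f3, with the next cell at 4223, and at 617 for Pantr1, with the next at 2420. In letter A, 1 cell read 6751 for Pou3f3, and the next 4980. The remaining cases are genes on in 1 cell of 7, to which that chance rate does not apply. Pou3f4 read 166 in 1 letter C cell and 35.7 in the next, and the Pou3f2 probe set 1450831_at read 241 in 1 letter C cell and 392 in 1 letter D cell, with the next cells at 8.10 and 3.67.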

How the results depend on the processing

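Across 235 recomputed values, 221 moved by less than the spread or interval and 14 by more, and no difference of at least 1 log2 unit changed its sign. The floor sets the size of the CP differences where CP lies below it. With the floor at the 95th percentile of TrpnX (6.26) the difference was −8.72 for Pou3f3, −8.51 for Pantr1, −3.40 for Pou3f2 and 1.30 for Pou3f4. With a floor of 25 it was −7.39 for Pou3f3 and −6.88 for Pantr1, and with a floor of 100 it was −5.47 and −4.88. The mean of both Pou3f3 probe sets, of which 1 is dark, gave −3.24. Against the 10 VZ/SVZ cells with Tubb3 alone, chosen after seeing the data, the difference was −4.21 for Pou3f1 and −5.24 for Pantr1. Leaving out 1 CP cell at a time gave −0.25 to 0.86 for Pou3f4. For Pou3f1 (−1.85), Pou3f2 (−1.41), Pou3f3 (−6.47) and Pantr1 (−5.88) it could change nothing, because all their CP values were set to the floor. Those runs are no check, though they count among the 221. Quantile normalisation brought the rho of Pou3f3 and Pantr1 to 0.13, and trimmed mean scaling brought the letter D difference of Pou3f3 to 0.032. The cause was not tested. All 150 recomputed marker differences moved by less than the SD between cells. That SD was larger than the differences themselves, except for Pou3f1 by Sox2 and by Tubb3. A difference could thus vanish and still count as unmoved, so the count says little about stability. All 20 recomputed shares stayed within the 95% interval of the main share, with Pou3f2 at 46.97% for a threshold of 100. No paired analysis was possible because no label pairs cells across groups. Signals near background and 3 CP cells limit statements on dim genes.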
